A study of Homo sapiens with 22 samples.

Results

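SNU-1105, an established human glioblastoma cell line, was set against 4 other established glioblastoma lines of the same table: KNS-42, LN-229, U-138MG and U-87MG. The comparison used 10 of the 22 libraries of the series, 2 for each of the 5 lines, and asked which genes had both SNU-1105 libraries beyond all 8 libraries of the other lines. The series measured poly(A) RNA of 11 glioblastoma lines by strand-specific RNA-seq. The labels name no treatment, transgene or selection for any of them. KALS-1, LN-18 and T98G, the other 3 lines of the table, took no part in the tests, because nearly all listed genes divide the 8 lines into these 3 and the remaining 5. Of the 2221 listed genes, 99.3% had mean FPKM at least 2-fold apart between these sides, and 59.0% were higher on the side of SNU-1105. How the genes of the table were chosen is not stated, so every count below is a count of listed genes.

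SNU-1105 grew in RPMI 1640 medium, KNS-42 and LN-229 in DMEM, and U-138MG and U-87MG in EMEM, all with 10% fetal bovine serum. No other line of the comparison shared the medium of SNU-1105, so line and medium cannot be told apart. The labels do not say if the 2 libraries per line are separate cultures, so p-values cover only library-to-library spread, possibly technical. SNU-1105 is 1 line: the tests show where these libraries of it differ from those of 4 others, and do not speak for a class of tumours.

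Glioblastoma lines kept in serum grow as adherent cells that carry mixtures of glial, neural and mesenchymal gene programmes. Several of the programmes met below are well described. MHC class II molecules present peptides to CD4+ T cells; their genes are switched on together by CIITA, a coactivator that is recruited to conserved promoter boxes by DNA-bound factors. Interferon response genes are switched on through a separate promoter element. Both programmes vary among glioma cells.

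A gene was called when SNU-1105 differed from each of the 4 lines in the edgeR quasi-likelihood test. The largest of the 4 p-values, Benjamini-Hochberg adjusted over 1714 tested genes, had to be under 0.05, with at least a 2-fold difference from every line and both SNU-1105 libraries beyond all 8 others. Levels are CPM, the reads of a gene scaled to a common library total. A value with ± is the mean and SD of the 2 libraries of a line, or, where named so, a log2 fold change and its SE. Gene positions are those of GENCODE 29 on GRCh38 and span the whole gene. Fold changes are against the nearest line, the one of the 4 that SNU-1105 differed from least.

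In SNU-1105, 47 genes were higher than in each of the 4 lines, which is 2.74% of the tested genes, and 54 were lower, which is 3.15%. Without a test, both SNU-1105 libraries lay above all 8 others for 143 genes (8.34%) and below them for 184 genes (10.7%). The called set joined very low levels of MHC class II RNA with high levels of the ETS factor gene FLI1, the secreted protein gene CHI3L1, the cystine transporter gene SLC7A11 and the Wnt pathway genes SFRP2 and LGR4. Of these genes, CHI3L1 and SFRP2 were not called with limma, an alternative test. The called genes of axon guidance, SLIT3 and SEMA6A, were both lower. The 11 tested genes of that list had a median log2 difference of 0.86. The balance of the calls moved with the scaling: 46.5% were higher with the library totals, 61.3% with TMM factors (65 higher and 41 lower) and 57.0% with RLE factors (57 higher and 43 lower). These factors raised SNU-1105 against the 4 lines by 0.303 (TMM) and 0.198 (RLE) on the log2 scale, averaged over the lines.

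**Figure D1:**
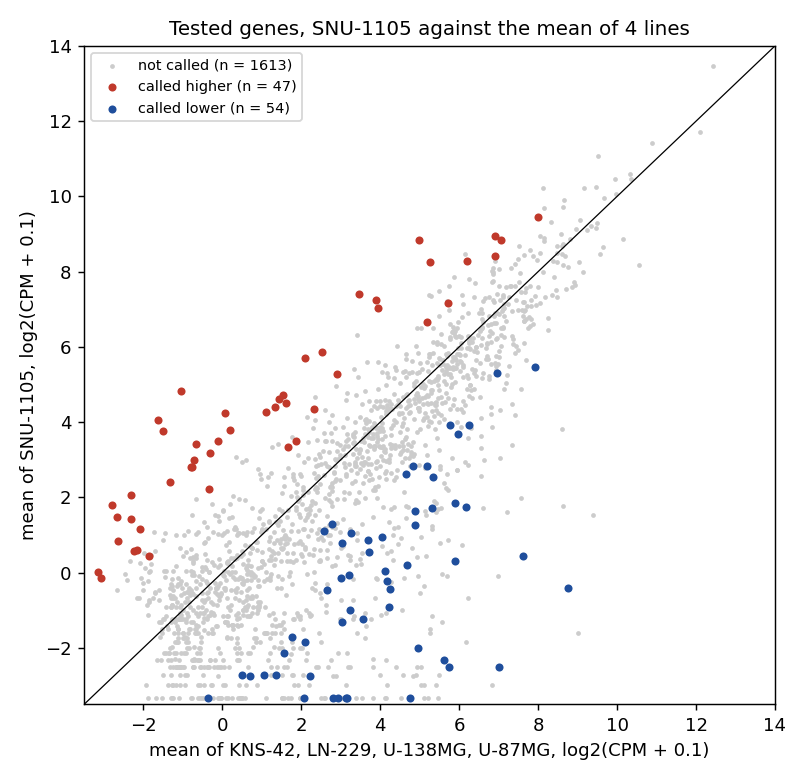
Mean level of each of the 1714 tested genes in SNU-1105 (y axis) against the mean of the 4 lines (x axis), both as log2 of CPM with 0.1 added; each point is a gene and the diagonal marks equal levels. The 47 genes called higher (red) and the 54 called lower (blue) lie off the diagonal on both sides, and 30 of the 54 are under 1 CPM in SNU-1105.

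The MHC class II genes were among the deepest falls. HLA-DRA (ENSG00000204287, chr6:32439842-32445046, plus strand), the alpha chain of the HLA-DR molecule, was at 0.559 and 0.751 CPM in the SNU-1105 libraries. It was at 471 and 511 CPM in KNS-42, 1145 and 984 CPM in LN-229, while U-138MG had 34.01 and 24.1 CPM and U-87MG 129.6 and 143 CPM. The groups did not overlap, as the call requires. U-138MG, the lowest of the 4 lines, was still 44.4-fold above SNU-1105 (log2 fold change -5.46 ± 0.27, edgeR adjusted p = 1.46e-08). In bulk RNA, fewer expressing cells and less RNA per cell cannot be told apart.

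HLA-DPA1 (chr6:33064569-33080775, minus strand), the alpha chain of HLA-DP, stood at 1.63 and 0.901 CPM in SNU-1105 against 32.5 to 424 CPM in the 8 other libraries (log2 fold change -4.76 ± 0.25, edgeR adjusted p = 2.33e-08). HLA-DRB1 (chr6:32578769-32589848, minus strand), the beta chain that pairs with HLA-DRA, had 3 reads in both SNU-1105 libraries together, 0.0508 and 0.1001 CPM. LN-229 was highest with 301 ± 39.8 CPM, and U-138MG had 2.99 ± 0.766 CPM (log2 fold change -5.19 ± 0.45 against U-138MG, edgeR adjusted p = 3.37e-06). Every line was far above SNU-1105 for both chains, and U-138MG was again the nearest. HLA-DMB (chr6:32934629-32941070, minus strand), a subunit of the peptide-exchange factor HLA-DM, was at 0.813 and 1.05 CPM against 3.17 to 33.9 CPM (edgeR adjusted p = 0.000661). Reads of HLA genes can be shared between near-identical paralogs, so the levels of single HLA genes are uncertain.

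CIITA (chr16:10866222-10943021, plus strand), the class II coactivator, fell with them. It was at 4.06 and 2.45 CPM in SNU-1105, 73.8 and 109 CPM in KNS-42, 134 and 127 CPM in LN-229, while U-138MG had 29.7 and 21.9 CPM and U-87MG 42.7 and 40.5 CPM. SNU-1105 lay 7.92-fold below the lowest line (log2 fold change -2.98 ± 0.28, edgeR adjusted p = 4.95e-06). CIITA kept a measurable level in SNU-1105, with 129 reads in its 2 libraries.

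Of 22 genes of antigen presentation listed for this work, 13 were tested. None was called higher and 5 were called lower: HLA-DRA, HLA-DRB1, HLA-DPA1, HLA-DMB and CIITA. The median log2 difference between SNU-1105 and the 4 lines, with 0.1 CPM added, was -5.37 over these 13 genes and -0.18 over all tested genes. Against each line alone, 11 of the 13 were lower than in KNS-42, LN-229 and U-87MG and 6 were lower than in U-138MG, where 32.8%, 27.9%, 30.0% and 27.9% of all tested genes were lower in that order. These comparisons share the SNU-1105 libraries.

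U-138MG itself held little RNA of several class II genes. CD74, the invariant chain that chaperones class II molecules, was at 2.18 and 3.403 CPM in SNU-1105 and 1.66 and 1.297 CPM in U-138MG, against 2029.9 ± 332 CPM in LN-229. HLA-DQA1 had no reads in either line, and HLA-DQB1 had none in U-138MG and 0.0508 and 0.1001 CPM in SNU-1105. HLA-DMA, the partner of HLA-DMB, was at 4.32 and 4.704 CPM in SNU-1105 and 5.34 and 3.79 CPM in U-138MG. With U-138MG left out, 11 of the 13 were called lower than in each remaining line, as were 92 of all 1679 tested genes. Leaving out KNS-42, LN-229 or U-87MG gave 5.

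The other 2 tested members act in the class I pathway. HLA-C, a class I heavy chain, was at 226 and 285 CPM in SNU-1105 and 45.7 to 206 CPM in the other libraries. PSMB9, a subunit of the immunoproteasome, was at 22.3 and 24.9 CPM against 8.39 to 20.7 CPM. For both genes SNU-1105 lay above all 8 libraries, but neither passed the test (edgeR adjusted p = 0.545 and 1).

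**Figure D2:**
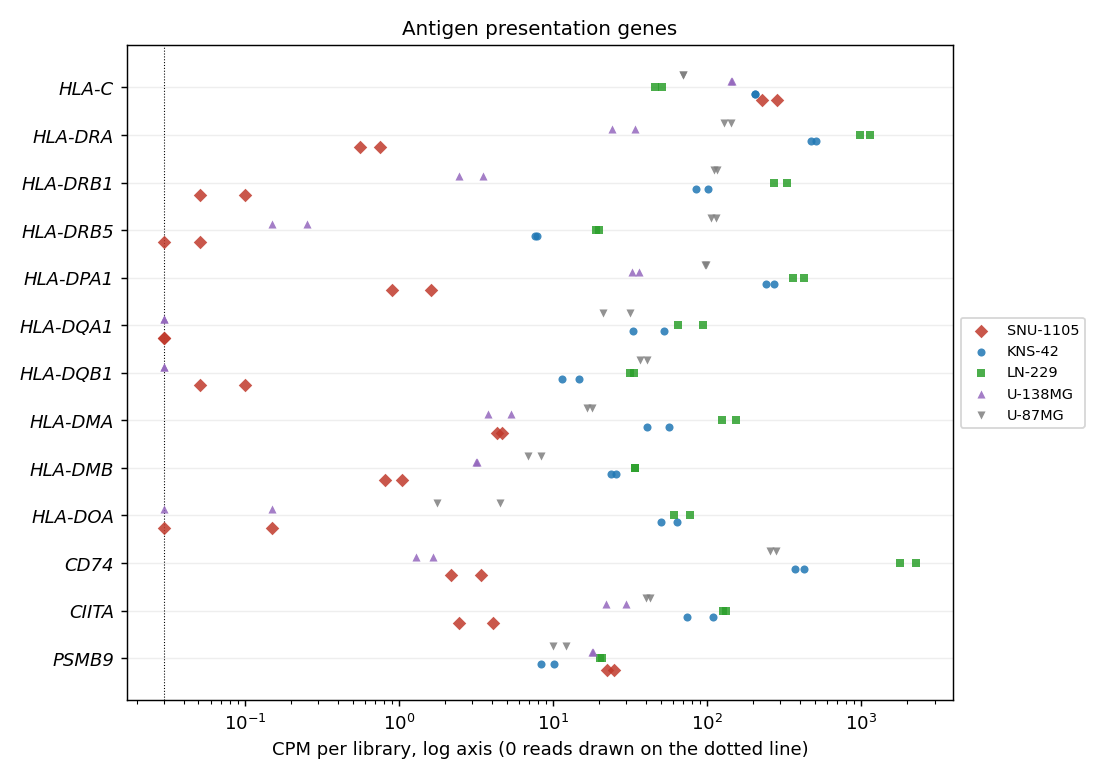
Level of the 13 tested antigen presentation genes in each of the 10 libraries, in CPM on a log axis, with libraries at 0 reads drawn on the dotted line. SNU-1105 (red diamonds) sits at the left for the class II genes and CIITA, next to U-138MG for CD74, HLA-DMA and the HLA-DQ genes, and at the right for HLA-C and PSMB9.

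Promoter windows are shown for class II genes because the factors that recruit CIITA bind there. The 4 shown are those in which the letters CTGATGAT were found. The windows come from RefSeq on GRCh38.p14, 80 bases each, written 5′ to 3′ on the gene's strand. Capitals mark CTGATGAT, letters within the X box of class II promoters, and CTGATTGG, letters of the Y box. These letters were chosen after the promoter sequences had been looked at. HLA-DRB1 and HLA-DMB were called lower, and HLA-DRB5 and HLA-DMA were not called.
HLA-DRB1 (chr6:32589855-32589934, minus strand): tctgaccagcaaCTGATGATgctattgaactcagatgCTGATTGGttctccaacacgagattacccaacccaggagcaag
HLA-DRB5 (chr6:32530338-32530417, minus strand): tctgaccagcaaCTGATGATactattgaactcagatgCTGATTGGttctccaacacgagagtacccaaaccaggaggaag
HLA-DMB (chr6:32941044-32941123, minus strand): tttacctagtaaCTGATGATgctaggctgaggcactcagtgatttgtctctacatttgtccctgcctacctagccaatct
HLA-DMA (chr6:32953138-32953217, minus strand): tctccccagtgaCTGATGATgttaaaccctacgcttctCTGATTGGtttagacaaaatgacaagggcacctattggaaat

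Among the 11 antigen presentation genes with a RefSeq promoter window of 300 bases, CTGATGAT was found in 4 and CTGATTGG in 5, on either strand. Over all 35116 windows of that length, 0.681% held the first and 3.97% the second, counted per window and not per gene. The called gene HLA-DMB and the gene HLA-DMA, which was not called, both hold CTGATGAT. HLA-DPA1, also called lower, has a window that holds neither string, and HLA-DRA and CIITA were not matched to a window. HLA-DRB5 was at 0.201 ± 0.0723 CPM in U-138MG and had 1 read in SNU-1105, and was not called (edgeR adjusted p = 0.141).

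Of 28 interferon response genes listed, 19 were tested: 3 were called higher in SNU-1105 and none lower. Over all tested genes 2.74% were called higher and 3.15% lower. The median log2 difference of the list was 0.43, against -0.18 over all tested genes. OAS2 (chr12:112978395-113011723, plus strand), an oligoadenylate synthetase that senses double-stranded RNA, was at 19.6 and 18.6 CPM in SNU-1105. The highest other line was U-138MG at 5.59 and 5.59 CPM, and the remaining 6 libraries lay between 0.103 and 1.896 CPM (log2 fold change 1.77 ± 0.27, edgeR adjusted p = 0.000572). CGAS (chr6:73413515-73452276, minus strand), the cytosolic DNA sensor, was at 2.998 and 2.35 CPM, with at most 0.202 CPM in any other library (edgeR adjusted p = 0.000519). Its level in SNU-1105 was low in absolute terms, at 106 reads in the 2 libraries.

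ISG15 (chr1:1001138-1014540, plus strand), a ubiquitin-like modifier, was at 11.3 and 11.3 CPM against 1.84 to 5.64 CPM, with U-87MG nearest (log2 fold change 1.22 ± 0.25, edgeR adjusted p = 0.00652). The call was lost without replicate 1 of U-138MG (edgeR adjusted p = 0.117) and without replicate 1 or 2 of U-87MG (0.0729 and 0.0563). The most abundant members in SNU-1105 that were not called were IFITM3, a restriction factor of viral entry, at 43.2 and 68.3 CPM, and OAS3 at 58.3 and 44.2 CPM. Both lay inside the range of the other lines, 11.6 to 86.2 CPM and 10.4 to 92.9 CPM. Compared with single lines, 6 of the 19 were higher and 3 lower than in KNS-42, 4 higher and 5 lower than in LN-229, 6 higher and 3 lower than in U-138MG, and 11 higher and 3 lower than in U-87MG. Of all tested genes, 26.0%, 25.6%, 23.9% and 24.7% were higher in that order, and 32.8%, 27.9%, 27.9% and 30.0% were lower. With KNS-42 left out, ISG20, an exonuclease, and XAF1, an apoptosis regulator, were called lower beside the same 3 higher genes. With LN-229 left out, MX1 and IFITM2 joined those 3 as higher and none was lower. Leaving out U-138MG or U-87MG gave the same 3 higher genes and none lower. MX1 was at 12.04 and 12.2 CPM in SNU-1105, above all 8 other libraries at 1.08 to 7.66 CPM, and did not pass against all 4 lines (edgeR adjusted p = 0.141). ISG20 was at 0.254 and 0.4504 CPM in SNU-1105, below all 8 other libraries at 0.823 to 2.35 CPM, and did not pass against all 4 lines (edgeR adjusted p = 0.182). XAF1 had no reads in SNU-1105 or KNS-42. ISG20, XAF1, MX1 and IFITM2 were named after their values were seen.

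Windows of ISG15, which was called, and IFI6, which was not, are shown for the interferon-stimulated response element. Capitals mark GAAA, 2 bases of any kind and GAAA again, the core letters of that element, and overlapping copies run together. The letters were chosen after the promoters had been looked at.
ISG15 (chr1:1013369-1013448, plus strand): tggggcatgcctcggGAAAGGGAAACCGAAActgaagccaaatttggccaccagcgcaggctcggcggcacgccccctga
IFI6 (chr1:27672284-27672363, minus strand): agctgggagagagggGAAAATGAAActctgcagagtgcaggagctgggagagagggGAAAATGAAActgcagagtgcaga

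On either strand, this core was present in 14 of the 16 interferon response genes with a window and in 3.57% of all windows. A gene was counted if any of its windows held the core, while the share is per window. No copy was found for OAS2 or CGAS, the other called genes, for lack of a window or of the letters. IFI6, with 3 copies in its full window, of which the printed stretch holds 2, was at 19.97 and 27.2 CPM in SNU-1105 and 6.59 to 20.1 CPM in the other libraries, and was not called. None of the 11 antigen presentation windows held these letters.

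Among the 14 largest rises at 10 CPM or more, IRAG1 and FLI1 came first. IRAG1 (ENSG00000072952, chr11:10573091-10693988, minus strand), a substrate of cGMP-dependent kinase that regulates calcium release, was at 25.6 and 31.5 CPM in SNU-1105. KNS-42 had 0.103 and 0.4601 CPM, U-138MG 0.605 and 0.399 CPM and U-87MG 1.17 and 0.349 CPM, and LN-229 had no reads. SNU-1105 was 37.5-fold above the highest line mean (log2 fold change 5.21 ± 0.44, edgeR adjusted p = 4.21e-06). FLI1 (ENSG00000151702, chr11:128686535-128813267, plus strand), an ETS transcription factor of blood and endothelial cells, was at 16.5 and 16.3 CPM. It had no reads in KNS-42, 0.333 and 0.6600 CPM in LN-229, while U-138MG had 0.353 and 0.299 CPM and U-87MG 0.0976 and 0.0499 CPM (log2 fold change 5.04 ± 0.35, edgeR adjusted p = 1.12e-06). For both genes the 4 lines were near 0 and the 2 SNU-1105 libraries were close together.

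A second cGMP pathway gene, PDE5A (chr4:119494395-119628991, minus strand), the phosphodiesterase that degrades cGMP, was at 134 and 128 CPM, 3.96-fold above U-138MG at 36.2 and 30.1 CPM (edgeR adjusted p = 1.37e-05). GABRA2 (chr4:46248427-46475230, minus strand), a subunit of the GABA-A receptor, was at 16.4 and 11.3 CPM, with U-138MG at 2.02 and 1.596 CPM and U-87MG at 1.903 and 2.295 CPM. KNS-42 and LN-229 stayed at or under 0.333 CPM for GABRA2 (edgeR adjusted p = 2.71e-05). ERMN (chr2:157318625-157327713, minus strand), an actin-binding protein known from myelinating cells, was at 16.5 and 21.2 CPM against at most 2.32 CPM elsewhere (edgeR adjusted p = 4.21e-06).

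ME1 (chr6:83210389-83431071, minus strand), the cytosolic malic enzyme that makes NADPH, was at 178 and 126 CPM in SNU-1105, 33.7 and 29.98 CPM in U-138MG and 25.7 and 28.03 CPM in LN-229. It stayed under 1 CPM in KNS-42 and U-87MG, so the 4 lines themselves fell into high and low pairs for ME1 (log2 fold change 2.25 ± 0.21, edgeR adjusted p = 5.35e-06). DIO2 (chr14:80197527-80387757, minus strand), which converts thyroxine to the active thyroid hormone, was at 41.9 and 73.97 CPM against 1.999 to 14.7 CPM. ACSL5 (chr10:112374018-112428380, plus strand), a long-chain acyl-CoA synthetase, was at 12.9 and 9.36 CPM against 0.355 to 1.596 CPM, and SERINC2 (chr1:31409565-31434680, plus strand), of the serine incorporator family, at 23.1 and 18.8 CPM against 0.1996 to 6.52 CPM. The edgeR adjusted p was 0.000981 for DIO2, 0.000148 for ACSL5 and 0.000161 for SERINC2.

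Secreted proteins and a non-coding RNA made up the rest. CHI3L1 (ENSG00000133048, chr1:203178931-203186749, minus strand), a chitinase-like glycoprotein used as a mesenchymal glioblastoma marker, was at 474 and 435 CPM in SNU-1105. U-87MG had 94.3 and 151 CPM, KNS-42 3.14 and 1.02 CPM, U-138MG 0.907 and 0.698 CPM and LN-229 0.0476 and 0 CPM. SNU-1105 was thus 3.71-fold above U-87MG and far above lines that were near 0 (log2 fold change 1.89 ± 0.31, edgeR adjusted p = 0.000908). limma on log2 CPM gave an adjusted p of 0.0554 for CHI3L1, which did not pass. ANGPT2 (chr8:6499651-6563409, minus strand), a ligand of the endothelial receptor TIE2, was at 8.79 and 12.6 CPM against 0.0476 to 1.96 CPM (edgeR adjusted p = 9.93e-05). SULF1 (chr8:69466624-69660915, plus strand), an extracellular sulfatase that trims heparan sulfate, differed almost 2-fold between the SNU-1105 libraries, 119 and 223 CPM. Both were above KNS-42 at 33.4 and 47.6 CPM, while LN-229 and U-87MG had no SULF1 reads (edgeR adjusted p = 0.000504). PSG5 (chr19:43166256-43186536, minus strand), a pregnancy-specific glycoprotein, was at 15.4 and 11.6 CPM against at most 0.571 CPM (edgeR adjusted p = 5.35e-06). It belongs to a family of near-identical genes on chromosome 19, so its reads are uncertain. LINC01411, a long non-coding RNA gene (chr5:174336295-174532457, plus strand), was at 23.3 and 29.7 CPM against 0 to 8.25 CPM (edgeR adjusted p = 0.00108).

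**Figure D3:**
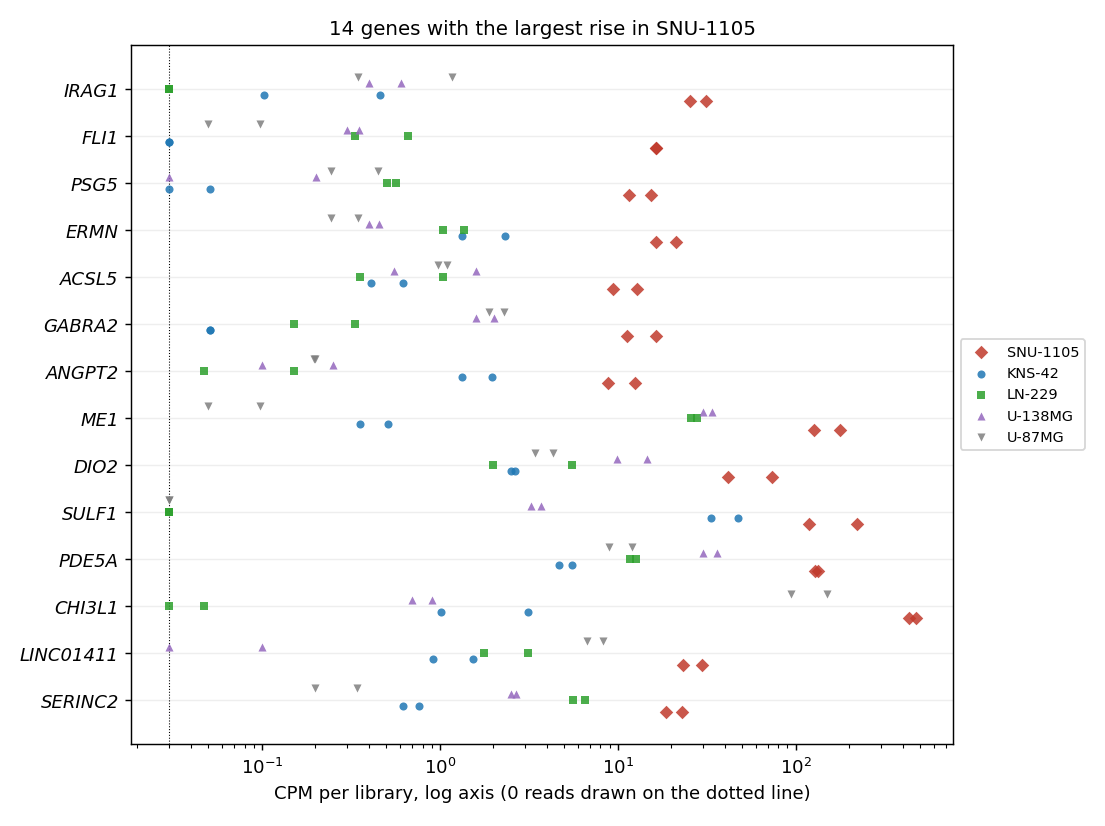
Level of the 14 genes with the largest rise in SNU-1105 in each of the 10 libraries, in CPM on a log axis, with libraries at 0 reads drawn on the dotted line. The SNU-1105 libraries (red diamonds) are to the right of all 8 others for each gene, as the call requires. For IRAG1, FLI1 and PSG5 the other 4 lines are near 0, and for ME1, SULF1 and CHI3L1 the other lines are spread over more than 100-fold.

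On the scale of the deposited FPKM, which relate reads to gene length and allow genes to be ranked, SFRP2 was the most abundant of the called genes in SNU-1105, at a mean of 154 FPKM. CHI3L1 followed at 135 FPKM, GLIPR1 at 73.2 FPKM, TENM3 at 58.7 FPKM and SLC7A11 at 51.5 FPKM. IRAG1, with a far larger fold, was at 3.71 FPKM and FLI1 at 2.04 FPKM. GLIPR1 and TENM3 are named here after their values were seen, and TENM3 was not called without replicate 2 of SNU-1105. Of the 47 higher genes, 12 had at least 100 CPM in SNU-1105 and 30 had at least 10 CPM.

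Of the 10 largest falls, 3 were HLA genes and 4 were genes without a read in SNU-1105. DOK6 (chr18:69401055-69849087, plus strand), an adaptor of receptor tyrosine kinases, had no reads in either SNU-1105 library. All 4 other lines expressed it: KNS-42 at 8.34 and 5.37 CPM, LN-229 at 6.66 and 7.51 CPM, U-138MG at 11.2 and 7.93 CPM and U-87MG at 10.6 and 13.3 CPM. With 3 reads over both SNU-1105 libraries as the floor, 0.0756 CPM, DOK6 was at least 90.6-fold lower in SNU-1105 than in the lowest line (edgeR adjusted p = 2.19e-06). PRSS12 (chr4:118280038-118353003, minus strand), the neuronal serine protease neurotrypsin, also had no reads and was at least 60.3-fold lower than in U-87MG. The 8 other libraries held 4.39 to 57.1 CPM of PRSS12 (edgeR adjusted p = 4.21e-06).

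CHSY3 (chr5:129904472-130186634, plus strand), a chondroitin sulfate synthase, and ABCA8 (chr17:68867292-68955392, minus strand), a lipid transporter of the ABC family, were likewise at 0 reads. The other libraries held 2.15 to 18.9 CPM of CHSY3 and 1.88 to 24.4 CPM of ABCA8, giving at least 34.3-fold and 25.9-fold lower levels in SNU-1105 (edgeR adjusted p = 1.04e-05 and 1.33e-05). LRAT and CCN5 were also among the 7 lower genes with no SNU-1105 reads, with bounds of at least 4.22-fold and 3.39-fold. Both were named after their values were seen, and both had a line mean under 1.1 CPM among the 4 lines. The CCN5 call held in only 1 of the 10 fits that left out a library, the one without replicate 1 of LN-229. The LRAT call was lost in 3, those without replicate 1 or 2 of SNU-1105 or without replicate 1 of U-87MG.

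SLAIN1 (chr13:77697854-77764242, plus strand), a protein of growing microtubule ends, was at 0.0508 and 0.1001 CPM in SNU-1105. It spread from 4.64 and 4.94 CPM in U-138MG and 5.47 and 7.29 CPM in U-87MG to 71.8 and 61.7 CPM in LN-229, with KNS-42 highest at 137 and 133 CPM (log2 fold change -5.87 ± 0.41, edgeR adjusted p = 6.04e-07). NEGR1 (chr1:71395940-72282734, minus strand), a neuronal adhesion protein of the IgLON family, was at 1.02 and 0.2502 CPM in SNU-1105. Its libraries differed there by over 2-fold but were both far below 11.01 CPM, the lowest of the 8 others (edgeR adjusted p = 4.21e-06). SLITRK5 (chr13:87672615-87696272, plus strand), a transmembrane protein that shapes neurites and synapses, was at 0.152 and 0.1501 CPM. LN-229 was the nearest line with 3.66 and 3.25 CPM and KNS-42 the highest with 58.8 and 53.1 CPM (log2 fold change -4.46 ± 0.37, edgeR adjusted p = 2.19e-06).

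**Figure D4:**
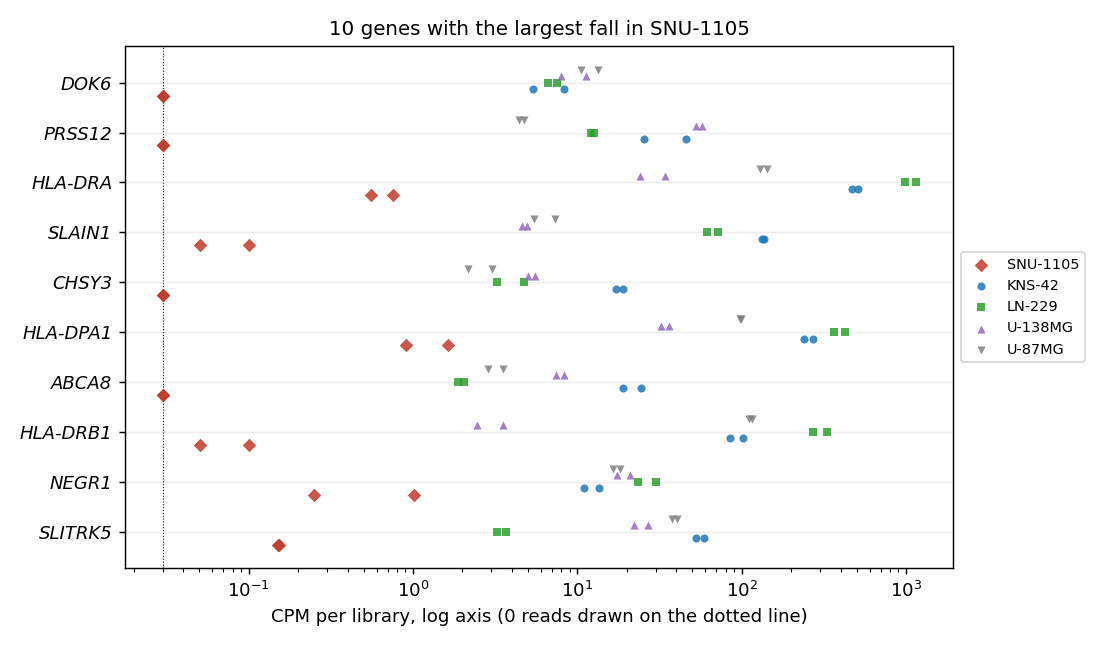
Level of the 10 genes with the largest fall in SNU-1105 in each of the 10 libraries, in CPM on a log axis, with libraries at 0 reads drawn on the dotted line. SNU-1105 (red diamonds) had no reads of DOK6, PRSS12, CHSY3 and ABCA8, and the 4 lines are close together for DOK6 and NEGR1 and widely spread for HLA-DRB1 and SLAIN1.

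Genes of neurons and synapses were called in both directions. Of 15 tested, 2 were called higher (CNTNAP2 and C11orf87) and 2 lower (SYT1 and SLITRK5), where 2.74% and 3.15% of all tested genes were. The median log2 difference of the list was -0.24, against -0.18 over all tested genes. SYT1 (chr12:78863993-79452008, plus strand), the calcium sensor of synaptic vesicles, was at 2.29 and 2.302 CPM in SNU-1105 and 12.7 to 41.5 CPM in the others, 6.53-fold under the lowest line (edgeR adjusted p = 4.21e-06). CNTNAP2 (chr7:146116002-148420998, plus strand), a neurexin-like adhesion protein of axons, was at 7.57 and 8.01 CPM against at most 1.12 CPM (edgeR adjusted p = 5.69e-05). C11orf87, a brain-enriched gene whose role is less clear, was at 49.1 and 54.8 CPM, with KNS-42 at 9.93 and 21.3 CPM and no other library above 1.1 CPM (edgeR adjusted p = 0.00198). The most abundant members that were not called, NRCAM at 101 and 180.4 CPM and GRIK2 at 21.8 and 30.3 CPM, lay inside the range of the other lines. Against single lines, 4 of the 15 were higher and 10 lower than in KNS-42, 4 and 8 than in LN-229, 6 and 5 than in U-138MG, and 7 and 2 than in U-87MG. Of all tested genes, 26.0%, 25.6%, 23.9% and 24.7% were higher and 32.8%, 27.9%, 27.9% and 30.0% lower in that order, and the difference between the lines was not tested.

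In axon guidance, 2 of 11 tested genes were called lower and none higher, where 3.15% and 2.74% of all tested genes were. The median log2 difference of the list was 0.86, against -0.18 over all tested genes. Of the 11, 5 were higher and 5 lower than in KNS-42, and 5 higher and 6 lower than in LN-229. Against U-138MG the counts were 2 and 3, and against U-87MG 5 and 3. The shares over all tested genes are those given for neurons and synapses. SLIT3 (chr5:168661733-169301129, minus strand), a secreted repellent that binds ROBO receptors, was at 0.661 and 1.45 CPM against 3.99 to 46.1 CPM (log2 fold change -1.98 ± 0.31, edgeR adjusted p = 0.000598). SEMA6A (chr5:116443616-116574934, minus strand), a transmembrane semaphorin, was at 0.254 and 0.601 CPM, with U-87MG nearest at 1.51 and 2.64 CPM, then U-138MG at 2.72 and 1.95 CPM (edgeR adjusted p = 0.00358). It was not called without replicate 2 of U-87MG (edgeR adjusted p = 0.0639). SEMA5A, another semaphorin, pointed the other way at 211 and 341 CPM against 40.5 to 174 CPM but did not pass (edgeR adjusted p = 0.0785). PLXNA4, a semaphorin receptor, was at 222 and 104 CPM in SNU-1105 and 124 and 166 CPM in U-138MG, which overlapped. With U-138MG left out, EFNB1, PLXNA4 and SEMA5A were called higher beside the same 2 lower genes. Leaving out LN-229 added UNC5C as higher, and leaving out U-87MG added NTN1 as lower. EFNB1, UNC5C and NTN1 were named after their values were seen.

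Cell adhesion genes gave 1 call among 10, PCDH9 (chr13:66302834-67230445, minus strand), a protocadherin of the nervous system. It was at 3.46 and 3.55 CPM in SNU-1105 against 10.6 to 96.2 CPM (log2 fold change -1.81 ± 0.25, edgeR adjusted p = 0.000207). ITGA5, the fibronectin receptor subunit, was at 932 and 761 CPM and lay above all 8 other libraries, at most 741 CPM, without passing the test (edgeR adjusted p = 0.801). ITGB8, an integrin subunit that activates latent TGF-beta, was at 306 and 345 CPM, close to KNS-42 at 329 and 336 CPM and LN-229 at 341 and 327 CPM.

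The Wnt pathway list gave 2 higher calls among 10 tested genes and no lower call. Over all tested genes 2.74% were called higher and 3.15% lower. The median log2 difference of the list was 1.06, against -0.18 over all tested genes. Against single lines, 6 of the 10 were higher and 1 lower than in KNS-42, and 5 and 1 than in LN-229. Against U-138MG the counts were 4 and 2, and against U-87MG 7 and 1. LGR4 (chr11:27365961-27472775, minus strand), a receptor for R-spondins that strengthens Wnt signals, was at 139.7 and 149.7 CPM in SNU-1105. U-87MG had 63.4 and 69.5 CPM, LN-229 72.2 and 54.9 CPM, KNS-42 44.3 and 39.3 CPM and U-138MG 40.6 and 34.97 CPM (log2 fold change 1.12 ± 0.19, edgeR adjusted p = 0.00112). SFRP2 (chr4:153780592-153789120, minus strand), a secreted protein that binds Wnt ligands, was at 210.0 and 406 CPM, with KNS-42 at 149 and 139 CPM, U-87MG at 5.51 and 8.18 CPM and the other lines lower still (log2 fold change 1.10 ± 0.27, edgeR adjusted p = 0.0241). The SFRP2 call rested on single libraries: the edgeR adjusted p was 0.248 without replicate 2 of SNU-1105, and 0.113 and 0.162 without replicate 1 or 2 of KNS-42. Without replicate 2 of SNU-1105 its log2 fold change was 0.54. The SFRP2 call was also lost with limma (adjusted p = 0.210) and without the low-count filter (edgeR adjusted p = 0.0745). With all 16 libraries in the fit it was lost as well (edgeR adjusted p = 0.0583).

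Wnt ligand and receptor genes that were not called show how the lines shared high levels. WNT7B, a ligand, was at 263 and 127 CPM in SNU-1105 and 194 and 214 CPM in U-87MG, while LN-229 and U-138MG stayed near 0. With U-87MG left out, WNT7B joined LGR4 and SFRP2 among the higher calls. FZD6, a receptor, was at 140.4 and 182 CPM in SNU-1105, above all 8 other libraries at 36.7 to 130.2 CPM, but did not pass (edgeR adjusted p = 0.391). In BMP and TGF-beta signalling none of 8 tested genes was called, and TGFB2, a ligand, was at 70.7 and 110.4 CPM against 11.7 to 64.1 CPM (edgeR adjusted p = 0.143). With TMM factors TGFB2 was called (edgeR adjusted p = 0.011). LTBP1, which stores latent TGF-beta in the matrix, was at 175 and 159 CPM, above LN-229 with 42.7 ± 0.562 CPM and under U-87MG with 606 ± 107 CPM.

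Angiogenic genes gave 1 call, ANGPT2, among 5 tested. NRP2, a co-receptor of VEGF and semaphorins, was at 862 and 790.4 CPM in SNU-1105 and 415 and 559.5 CPM in U-87MG, above all 8 libraries. It passed the p threshold (edgeR adjusted p = 0.0253) with a log2 fold change of 0.76 ± 0.19, under the 2-fold limit, and was called with TMM factors (edgeR adjusted p = 0.00127). NRP1 was at 471 and 462 CPM and lay under U-87MG at 788 and 839 CPM. KDR, the main VEGF receptor, was at 59.5 and 98.99 CPM against 43.3 and 40.1 CPM in U-87MG and near 0 elsewhere (edgeR adjusted p = 0.0617). With U-87MG left out, ANGPT2, KDR and NRP2 were all called higher. KDR was named after its values were seen. EMCN, the only endothelial marker listed of 7, was at 0.152 and 0.250 CPM in SNU-1105.

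The matrix genes FN1 and FBN1 were abundant in SNU-1105, and in U-138MG still more so. Of 9 matrix protein genes tested, none was called higher and TNXB was called lower, with a median log2 difference of 1.58. FN1, which encodes fibronectin, was at 10626 and 11860.0 CPM in SNU-1105 and 14292 and 15204 CPM in U-138MG, and at 179 and 148 CPM in KNS-42. With U-138MG left out, FN1 was called higher. FBN1, the fibrillin gene, was at 1501 and 1574 CPM, between 926 and 743 CPM in U-87MG and 3643 and 4227 CPM in U-138MG. TNXB (chr6:32041153-32115334, minus strand), a tenascin of connective tissue, was at 1.17 and 1.101 CPM. KNS-42 at 3.76 and 3.43 CPM and LN-229 at 3.57 and 1.98 CPM were near it, while U-138MG at 137 and 145 CPM and U-87MG at 81.8 and 96.3 CPM were far above (edgeR adjusted p = 0.0175). TNXB shares sequence with the pseudogene TNXA, so its reads are uncertain. TNXB was not called without replicate 1 of LN-229 (edgeR adjusted p = 0.274) or without replicate 2 of SNU-1105 (0.0755).

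Among 8 tested matrix crosslinking and protease genes none was called. HTRA1, a secreted serine protease, was at 598 and 675 CPM and above all 8 others at 186 to 404 CPM, without passing (edgeR adjusted p = 0.0846). In the heparan sulfate list SULF1 was the 1 call among 7. CSPG4 at 108 and 80.5 CPM and GPC6 at 51.7 and 67.7 CPM, both core proteins of proteoglycans, lay inside the range of the other lines.

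Mesenchymal glioblastoma genes gave 1 call among 8, CHI3L1, with a median log2 difference of -0.28. VIM, the vimentin gene, was at 3249 and 3465 CPM in SNU-1105 and under all 8 other libraries, 3584 to 5406 CPM, without passing the test (edgeR adjusted p = 1). None of 5 tested proneural and progenitor genes was called. SOX2, a stem cell transcription factor, was at 81.96 and 130.2 CPM in SNU-1105, near LN-229 at 109 ± 12.4 CPM, under KNS-42 at 783 and 818 CPM and above U-138MG and U-87MG, which were under 1 CPM. FABP7, a fatty acid carrier of radial glia, was at 12.4 and 28.9 CPM, inside the 0 to 107 CPM of the others. GJA1, the connexin gene of astrocytes, was at 754 and 1152 CPM, near KNS-42 at 1092 and 977 CPM and above the other 3 lines. Of 14 glial markers used to check cell identity only GJA1 was in the table, so the glial label could not be tested further. None of 6 stromal markers was listed.

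Of 6 immune markers, 4 were listed. CSF1R (chr5:150053291-150113372, minus strand), the receptor of macrophage colony-stimulating factor, was called higher at 26.2 and 22.6 CPM against 8.49 and 8.78 CPM in U-87MG and at most 1.56 CPM in the other lines (2.82-fold above U-87MG, edgeR adjusted p = 0.00253). limma gave an adjusted p of 0.0924 for CSF1R. The pan-leukocyte gene PTPRC was at 0.102 and 0.300 CPM, the monocyte gene CD14 at 0.254 and 0.1001 CPM, and ITGAM had no reads in SNU-1105. The defining leukocyte markers were thus at or near 0 in the libraries where CSF1R was high. Of 5 simple epithelial markers 4 were listed, and none was called. KRT18 was at 23.1 and 21.5 CPM and KRT8 at 7.62 and 10.6 CPM, both inside the range of the other lines, and CDH1 had no reads in SNU-1105.

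Developmental transcription factors called beside FLI1 were under 5 CPM in SNU-1105. Of 9 tested homeobox genes, ALX4 and HOXA13 were called higher and none lower, where 2.74% and 3.15% of all tested genes were. The median log2 difference of the list was 0.96, against -0.18 over all tested genes. ALX4 (chr11:44260440-44310166, minus strand), a factor of skull and limb development, was at 2.74 and 2.402 CPM against at most 0.4601 CPM (edgeR adjusted p = 0.00373), and was not called without replicate 1 of KNS-42 (0.0704). HOXA13 (chr7:27193503-27200106, minus strand), a factor of the distal limb and hindgut, was at 4.32 and 4.75 CPM against 0 to 1.76 CPM (edgeR adjusted p = 0.0459). This call was lost in 8 of the 10 fits that left out a library, those without either replicate of SNU-1105, KNS-42, LN-229 or U-87MG, with the highest edgeR adjusted p at 0.229 without replicate 2 of LN-229. HOXA13 also lost its call with DESeq2 (adjusted p = 0.0980) and limma (adjusted p = 0.132). The same held without the low-count filter and with the replicate number as a block (edgeR adjusted p = 0.0880 and 0.0503). DLX1 at 56.2 and 44.4 CPM and HOXB2 at 41.6 and 38.98 CPM were higher in level but inside the range of the others. In the list of forkhead, T-box, GATA and related factors FLI1 was the 1 call among 8, and TFAP2A at 39.02 and 32.6 CPM and FOXF1 at 17.02 and 5.45 CPM were not called.

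Among transport and stress genes, SLC7A11 and SLC2A1 were called higher, both at high levels. SLC7A11 (chr4:138164097-138242349, minus strand), the cystine importer that feeds glutathione synthesis, was at 453 and 540.2 CPM in SNU-1105. It was at 226 and 169.8 CPM in U-87MG, 149.6 and 122 CPM in KNS-42, 87.8 and 94.1 CPM in LN-229, with U-138MG lowest at 71.6 and 44.1 CPM (log2 fold change 1.33 ± 0.23, edgeR adjusted p = 0.00147). SLC7A11 was the 1 call among 4 tested stress genes, where 2.74% of all tested genes were called higher. The median log2 difference of the list was -0.48, against -0.18 over all tested genes. The endoplasmic reticulum genes CRELD2 at 38.9 and 43.3 CPM and SDF2L1 at 10.6 and 9.06 CPM were inside the range of the others. TRIB3, named after its values were seen, was lower than in LN-229 and U-87MG (log2 fold change -2.27 and -3.35). Against KNS-42 and U-138MG its log2 fold change was 0.37 and -0.59, and TRIB3 was not called. SLC2A1 (chr1:42925375-42959176, minus strand), the main glucose transporter, was at 292 and 388 CPM against 61.7 to 187 CPM (log2 fold change 1.07 ± 0.20, edgeR adjusted p = 0.0029). Its fold fell below 2 without replicate 1 of LN-229 (log2 0.87) or replicate 2 of SNU-1105 (log2 0.85), which ended the call. ANGPTL4, the other hypoxia gene tested, was at 5.18 and 2.25 CPM and not called.

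MDM2 (chr12:68808176-68850686, plus strand), the ubiquitin ligase that restrains p53 and is itself a p53 target, was lower in SNU-1105. It was at 35.8 and 43.4 CPM against 89.1 and 93.9 CPM in KNS-42, 185 and 163 CPM in LN-229, while U-138MG had 88.1 and 90.1 CPM and U-87MG 143 and 135 CPM (log2 fold change -1.17 ± 0.17, edgeR adjusted p = 0.000408). With TMM or RLE factors the difference fell below 2-fold (log2 -0.80 and -0.92) and the call was lost. Further p53 targets among the 5 tested, ZMAT3 and RRM2B, were at 67.3 ± 16.7 CPM and 45.1 ± 6.22 CPM. KNS-42 was near for both, at 69.3 ± 1.38 CPM of ZMAT3 and 44.4 ± 0.4803 CPM of RRM2B. The other 3 lines were higher, and neither gene was called. The list had a median log2 difference of -1.14, against -0.18 over all tested genes, of which 3.15% were called lower. The remaining members, BBC3 and GADD45B, were named after their values were seen. BBC3 was higher than in KNS-42 (log2 fold change 1.52) and GADD45B lower (-1.14). Neither was called against any of the other 3 lines. None of 9 cytokine and NF-kB genes, 8 growth factor genes or 4 contractile genes was called. Among their abundant members LIF was at 36.6 and 22.4 CPM, TNFAIP3 at 33.7 and 28.1 CPM, NGFR at 201 and 159 CPM, EPHA5 at 155 and 176 CPM and TPM2 at 28.6 and 31.1 CPM. SSX1, the tested cancer-testis gene, was not called either. IGFBP5, the tested IGF-binding protein gene, was at 1398 and 1408 CPM, between U-138MG at 1011 and 1023 CPM and KNS-42 at 3002 and 2694 CPM.

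Against single lines SNU-1105 differed in many more genes. It was higher in 446 genes and lower in 563 than KNS-42, 438 and 478 than LN-229, 410 and 478 than U-138MG, and 424 and 514 than U-87MG. The nearest line was spread over all 4: for the 47 higher genes it was KNS-42 in 14, U-87MG in 14, LN-229 in 10 and U-138MG in 9. For the 54 lower genes it was U-138MG in 19, LN-229 in 14, KNS-42 in 13 and U-87MG in 8. Without KNS-42 the counts were 88 higher and 102 lower, without LN-229 84 and 102, without U-138MG 88 and 92, and without U-87MG 93 and 103.

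The 3 lines left out of the tests often lay on the same side of the 4 lines as SNU-1105. Its mean was inside the range of the 3 left-out line means for 21 of the 47 higher and 31 of the 54 lower genes. For 25 of the 47 higher genes all 3 left-out line means were also above all 4 lines, against 10.3% of all tested genes. For 43 of the 54 lower genes all 3 were also below, against 23.7%. The called genes were chosen by the levels of the 4 lines, and nearly all listed genes differ between the sides. These counts therefore cannot show whether SNU-1105 is like the left-out lines. FLI1 was at 17.3 and 17.4 CPM in KALS-1, 18.5 and 18.1 CPM in LN-18 and 22.96 and 18.6 CPM in T98G, close to SNU-1105. HLA-DRA was at 1.59 and 1.52 CPM in T98G and lower in KALS-1 and LN-18. DIO2, PDE5A and SERINC2 reached higher levels in LN-18 than in SNU-1105, at 602 ± 9.51, 381 ± 31.9 and 122 ± 0.691 CPM. So did ACSL5, GABRA2 and CGAS, at 57.2 ± 2.69, 167 ± 8.64 and 42.0 ± 0.387 CPM. PSG5 was at 234 and 223 CPM in KALS-1, far above its 15.4 and 11.6 CPM in SNU-1105.

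SNU-1105 lay beyond the left-out lines as well for 17 of the higher and 6 of the lower genes. Of those described above, these were IRAG1, ERMN, CNTNAP2, ANGPT2, ME1, SULF1, CHI3L1, LINC01411, C11orf87, CSF1R, GLIPR1, LGR4, SFRP2 and TENM3 on the higher side, and CHSY3, SLITRK5 and TNXB on the lower side. IRAG1 was at most 2.29 CPM in the left-out libraries, CHI3L1 at most 4.22 CPM and LGR4 at most 38.8 CPM. These values are a description, since nearly all listed genes differ between the sides of the table.

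Called genes were spread over the genome. Chromosome 4 held 6 higher and 6 lower genes of 102 tested, chromosome 5 held 6 and 5 of 95, and chromosome 9 held none of 51. Chromosome 13 held 4 lower genes of 36 tested, among them SLAIN1, SLITRK5 and PCDH9, and no higher gene. Over all tested genes 2.74% were higher and 3.15% lower, and no chromosome was tested against these shares. Neighbours in the order of tested genes that were called the same way were PCDH9 with SLAIN1 (lower), GGT5 with POM121L9P and CNTNAP2 with RARRES2 (higher). These are 4 of the 47 higher and 2 of the 54 lower genes, and clustering was not tested. Such neighbours can lie far apart: PCDH9 ends at 67230445 and SLAIN1 starts at 77697854 on chromosome 13. GGT5 and POM121L9P lie at chr22:24219654-24245142 and chr22:24251828-24265525, and the latter is a transcribed pseudogene, so its reads may be shared with related copies. RARRES2, GGT5 and POM121L9P were named after their values were seen.

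The SNU-1105 libraries agreed less well than those of the other lines. Of 1147 genes at 1 CPM or more in either library, 67.7% lay within 1.5-fold between its 2 libraries, against 84.2% to 90.1% in the other 4 lines, and 149 genes were more than 2-fold apart. Of the called genes, 12 of the 47 higher and 18 of the 54 lower were more than 1.5-fold apart in SNU-1105, and 5 and 8 more than 2-fold. Library 2 was above library 1 for 28 of the 47 higher and 26 of the 54 lower genes. In the 10 fits that each left out 1 library, 29 of the 47 higher and 36 of the 54 lower genes kept their call every time. The other genes named as called, apart from ALX4, HOXA13, ISG15, SFRP2, SLC2A1, SEMA6A and TNXB and those named after their values were seen, were among these.

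**Figure D5:**
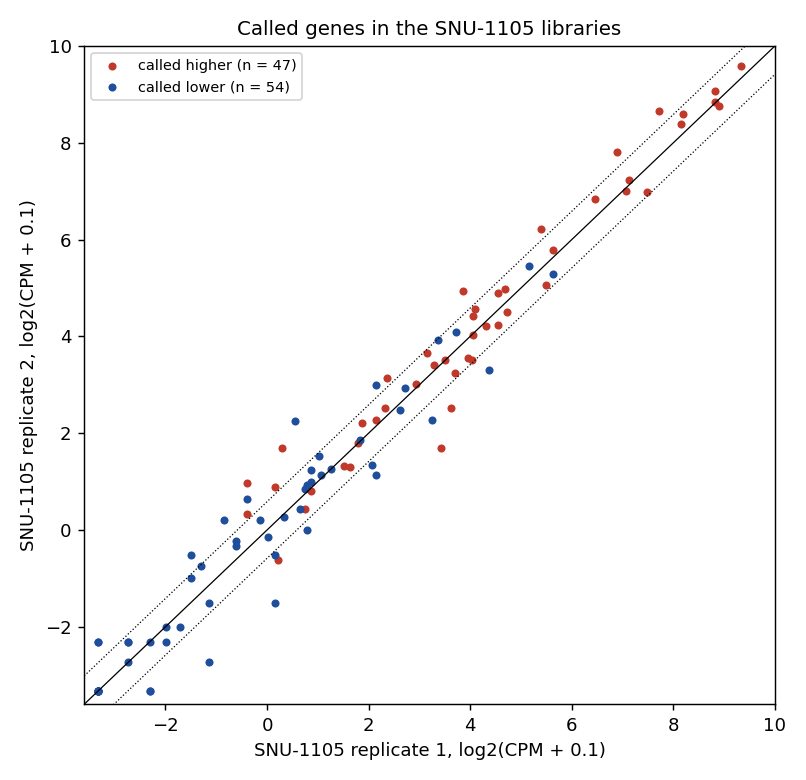
Level of the 101 called genes in replicate 2 against replicate 1 of SNU-1105, as log2 of CPM with 0.1 added; the solid line marks equal levels and the dotted lines a 1.5-fold difference. Most of the 47 higher (red) and 54 lower (blue) genes lie between the dotted lines, with 12 and 18 more than 1.5-fold apart.

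The p-values treat the 2 libraries of a line as its replicates. The fit pools the spread of each gene over all its lines. SNU-1105, whose libraries agreed less well, may therefore vary more than the p-values and SEs allow. With the lines as units, 1 line against 4, limma called 0 genes (smallest adjusted p = 0.99957, with 49 genes at an unadjusted p under 0.05). An arm of 1 line leaves that test little room to call a gene. At the 2-fold limit, TENM3 and SLC2A1 were just inside on the higher side (log2 fold change 1.04 and 1.07) and KCNK2 and TNFAIP2 just outside (0.85 and 0.88). On the lower side DOCK4 and PPP1R14B-AS1 were just inside (-1.07 and -1.08), and NEMP2 and NAV2 just outside (-0.94 and -0.96). Genes named only at this limit were chosen after their values were seen.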

How the data were processed

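RNA-seq of 10 libraries (SNU-1105, KNS-42, LN-229, U-138MG and U-87MG, 2 each) was taken from a table of 2221 genes for 8 lines. The authors deposited raw read counts, FPKM and gene lengths per gene and library. HISAT2 2.2.1, StringTie 1.3.3, HTSeq 0.6.0, cutadapt 1.9.1, FastQC 0.10.1 and hg38/GRCh38 are named per the submitters' processing notes. Their roles, the annotation release and the strand setting of counting are not given in the sources used here, so overlapping genes are uncertain. Gene names were given for 2220 genes, and 2153 have a GENCODE 29 position.

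Library totals were worked back from counts, lengths and FPKM, using genes of 20 FPKM and 200 reads or more. They ran from 19431835 to 21011463 reads in the 10 libraries, agreed between genes within 0.0258%, and gave back the deposited FPKM within 0.01 for at least 99.9% of genes. The listed genes held 7.17% to 10.2% of the totals. No read of a gene still allows 3 reads per library, 0.143 to 0.154 CPM, for counting error only.

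Counts were fitted with edgeR 4.0.16 (R 4.3.3; quasi-likelihood, 1 coefficient per line, library totals without further factors, low-count filter by line with a minimum of 10), on all listed genes; 1714 were tested. SEs were worked back from F. DESeq2 1.42.0 and limma 3.58.1 (prior count 2) were alternatives. The fit was tested on simulated data.

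Named were the 14 called genes with the largest rise (SNU-1105 mean at least 10 CPM) and the 10 with the largest fall (lowest line mean at least 1 CPM), by the ratio of means with 0.1 CPM added. From each of 26 lists at most 4 called genes per direction and the 2 most abundant others were added; HLA-DMB, the fifth of its list, completes a count. Some genes are not reported here. Members, lists and tests were chosen with earlier results of these data known. RefSeq promoter windows (250 bases before to 50 after the start, GRCh38.p14) matched 28 of the 47 higher and 39 of the 54 lower genes.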

Additional observations from a re-analysis of the deposited data

How the results depend on the processing

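Against the 47 higher and 54 lower genes, TMM factors gave 65 and 41, RLE factors 57 and 43, DESeq2 39 and 53, limma 39 and 60, no low-count filter 37 and 46, all 16 libraries in the fit 44 and 49, and no fold threshold 53 and 62. Against the mean of the 4 lines the counts were 126 and 161. With lines as units they were 0 and 0. Leaving out KNS-42 gave 88 and 102, LN-229 84 and 102, U-138MG 88 and 92, and U-87MG 93 and 103. These rest on fewer lines to differ from. Leaving out 1 library at a time gave 36 to 53 higher and 45 to 51 lower genes; a lone library was assumed to vary like the other lines. In all 17 alternatives that keep the 4 lines and the fold rule, 27 higher and 34 lower genes kept their call.

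The replicate numbers do not pair the libraries: the 10 correlations between lines of the deviations of same-numbered libraries ran from -0.0304 to 0.086. With the replicate number as a block, 45 genes were higher and 51 lower. None of the called genes that the naming rule took reversed its direction under these alternatives. The directions of genes not called were not followed, and the TMM shift, up to 0.4033 on the log2 scale, is larger than the difference from the nearest line for some of them. SEMA5A was called in a fit that left out 1 library (lowest edgeR adjusted p = 0.00142). Depth limits genes near the floor: 30 of the 54 lower genes were under 1 CPM in SNU-1105, and their folds are imprecise.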
